A study of Rattus norvegicus with 6 samples.

Results

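The genes described here make, break down or respond to the cyclic nucleotides cAMP and cGMP. They were all features whose symbol names an adenylyl cyclase (Adcy), a soluble guanylyl cyclase subunit (Gucy1), a phosphodiesterase (Pde), a catalytic or regulatory subunit of protein kinase A (Prkac, Prkar), a cGMP-dependent kinase (Prkg) or an A-kinase anchoring protein (Akap) followed by a family number. This gave 57 of 32662 features, of which 50 averaged 0.5 FPKM or more across libraries and were tested among 14043 features. The 57 were 10 adenylyl cyclases, 4 soluble guanylyl cyclase subunits, 22 phosphodiesterase genes, 2 catalytic and 4 regulatory subunits of protein kinase A, 1 cGMP-dependent kinase and 14 anchoring proteins. The rats were of the outbred Sprague Dawley strain, labelled male and of postnatal day 38, and the tissue was amygdala. The B-CTRL group held 3 libraries labelled for behavioural testing, which the study's design describes as social play before the tissue was taken. The NB-CTRL group held 3 libraries labelled non-behavioral. No drug, genotype or allele is named in the labels of either group. The labels name 3 samples per group but do not state that they are separate animals, so the spread behind each p-value is that of these samples and may be technical. Values are FPKM, which scale fragment numbers by transcript length and by the library's mapped fragments, so levels of different genes can be set beside each other per length. Where 3 values are given for a group, they are those of its replicates 1, 2 and 3 in that order.

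Adenylyl cyclases form cAMP from ATP at the membrane, where stimulatory and inhibitory G proteins from neurotransmitter receptors act on them. Soluble guanylyl cyclase forms cGMP when nitric oxide binds it. Phosphodiesterases hydrolyse the nucleotides and differ in whether they take cAMP, cGMP or both. Protein kinase A is a tetramer in which regulatory subunits hold the catalytic subunits inactive until cAMP binds, and anchoring proteins tie the regulatory subunits to synapses, organelles or the nucleus. In the amygdala this pathway is known for its part in plasticity and fear memory, and in striatal projection neurons for carrying dopamine and adenosine receptor signals.

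Libraries differed in ways that bear on these genes. The FPKM sums lay between 579141 and 641725 in B-CTRL and between 522422 and 536937 in NB-CTRL, and absolute depth is unknown because the values hold no counts. B-CTRL 1 and NB-CTRL 2 stood apart. In B-CTRL 1 the 12 choroid plexus markers, of which Otx2 was listed at 0 throughout, summed to 7571 FPKM, against 87.4 to 133 FPKM in the other libraries, and the 4 matched chromosome Y genes summed to 0.400 FPKM, against 58.9 to 98.8 FPKM elsewhere, which goes against the male label. In NB-CTRL 2 the 12 hypothalamic and thalamic markers summed to 97.5 FPKM, against 17.4 to 33.6 FPKM in the other libraries. The neuropeptide gene Oxt was at 29.6 FPKM there and 0 to 2.48 FPKM elsewhere. Agrp, Avp, Pmch, Sim1, Slc17a6 and Tcf7l2 were also highest there, while Hcrt, Lhx9, Nkx2-1, Pomc and Trh were highest in other libraries. Summed striatal projection neuron markers, with 16 of 16 detected and no member among them, were 2418, 6584 and 7865 FPKM in B-CTRL, against 5381, 2312 and 4361 FPKM in NB-CTRL. Pallial excitatory markers, with 10 of 11 matched, summed to 793, 131 and 541 FPKM in B-CTRL, against 323, 253 and 698 FPKM in NB-CTRL. B-CTRL 1 and NB-CTRL 2 were thus lowest in striatal markers, and B-CTRL 2 was lowest in pallial markers. In bulk tissue, fewer cells of a type and less RNA per cell cannot be told apart. B-CTRL 2 also had low values for long genes: among features with their own locus of 46.0 to 1012 kb, the longest of 4 equal length classes, the median log2 deviation from the 6-library mean was -0.24 there, against 0.0040 to 0.12 in the other libraries. The tested members had a median locus of 91.7 kb, against 24.0 kb over all tested features. The 13 tested members Adcy2, Adcy3, Gucy1a3, Pde2a, Pde4b, Pde4d, Pde8a, Pde8b, Prkar2b, Akap2, Akap7, Akap8 and Akap10 share their locus with another feature, so the authors' counting could split reads there.

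**Figure D1:**
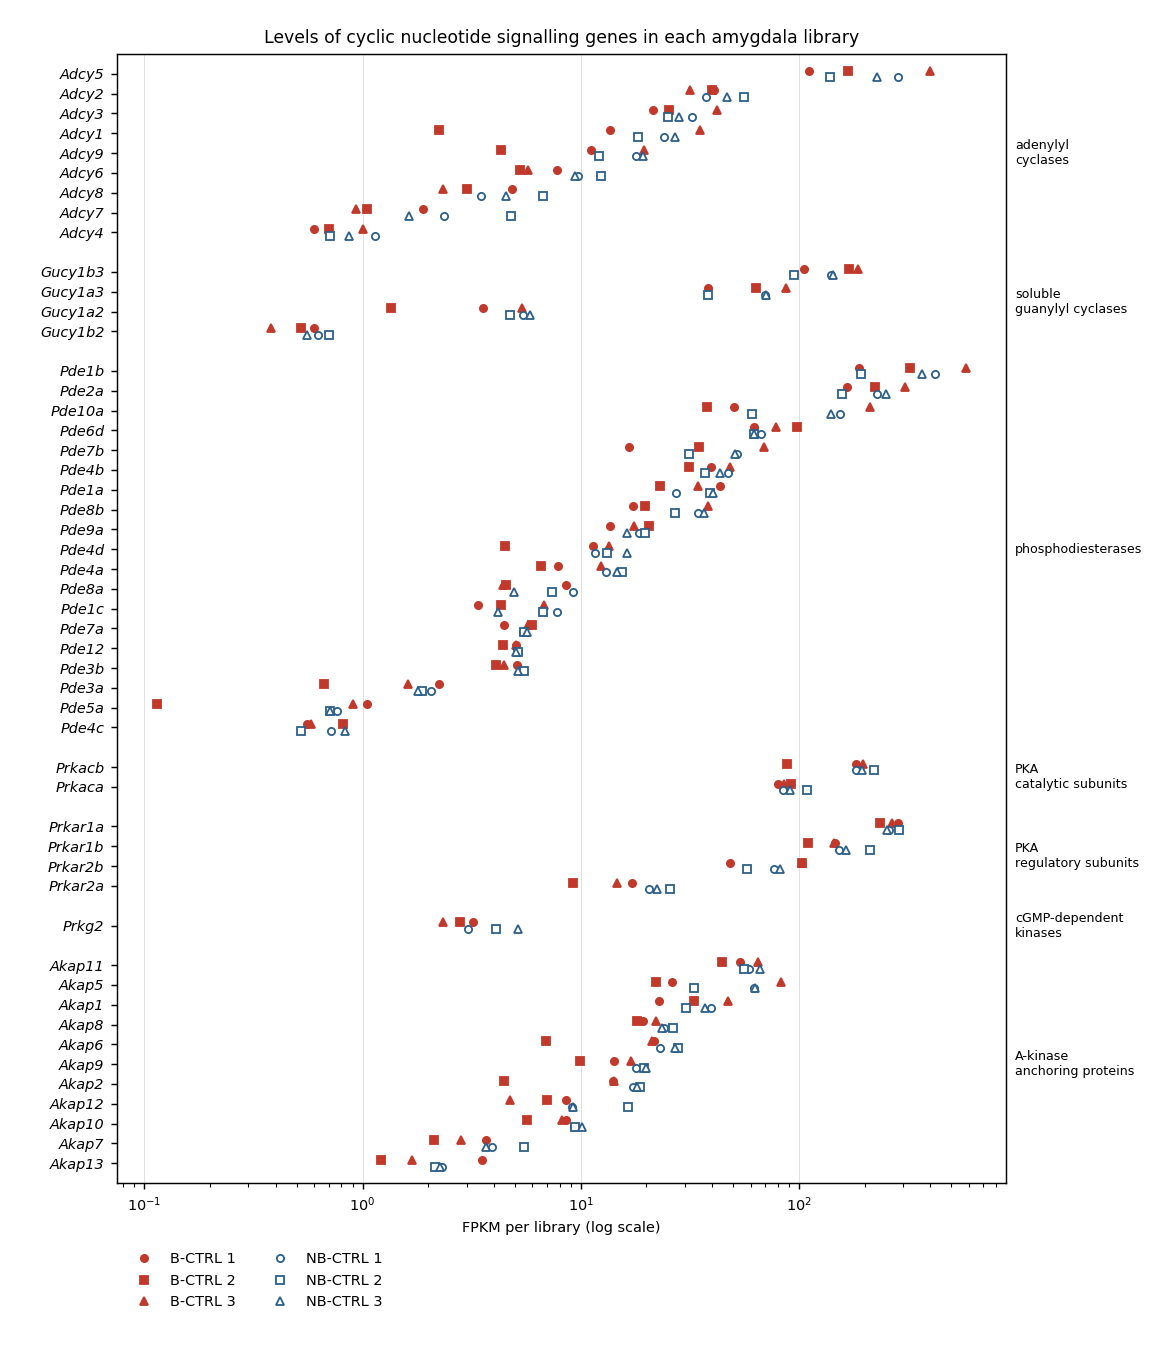
FPKM of the 50 tested members in each library on a log axis, by role and then by mean level, with filled red symbols for B-CTRL and open blue symbols for NB-CTRL and 1 symbol shape per replicate number. The range is wider over the B-CTRL libraries for 43 of 50 genes, as for Adcy1 (2.24 to 35.1 FPKM in B-CTRL and 18.2 to 27.0 FPKM in NB-CTRL).

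The question was which of these transcripts differ in the amygdala between rats that went through social play and rats that had no such test. Most of the genes had lower means in B-CTRL, by small steps, and none passed the test. Of the 50 tested members 44 had a log2 difference below 0 and 6 above 0, with a median of -0.31 (lower and upper quartile -0.53 and -0.09), where 50.3% of all tested features lay below 0 with a median of -0.0020. With limma and Benjamini-Hochberg adjustment over all features, 0 of 50 members passed at 0.05, and the background was 0.0% (0 of 14043 features). At an unadjusted limma p under 0.05, 6 members were lower and 0 higher in B-CTRL of the 50, where the background was 6.07% lower and 6.25% higher. The 6 were Adcy6, Pde4a, Prkar2a, Akap8, Akap9 and Akap12. The B-CTRL and NB-CTRL values did not overlap for 12 members, all lower in B-CTRL (24.0%), against a background of 12% of features lower and 11.7% higher without overlap. Without B-CTRL 1 the median was -0.29, 37 members lay below 0, and 8 were lower and 2 higher at an unadjusted p under 0.05, where 6.89% of all features were lower and 6.99% higher. Without B-CTRL 3, 12 members were lower at that threshold, where 13.1% of all features were. Without NB-CTRL 2 it was 1 member (background 1.93%), and without NB-CTRL 3 it was 3 (background 3.33%), with 0 members higher in these 3 cases.

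The members' median log2 difference shrank without B-CTRL 2 and after removal of the length trend, and stayed negative. The causes were not tested. B-CTRL 2 held the lowest value for 26 of the 50 members (background 29.3% of features), B-CTRL 1 for 13 (17.1%), B-CTRL 3 for 7 (15.0%) and NB-CTRL 2 for 4 (15.5%), while NB-CTRL 1 (11.8%) and NB-CTRL 3 (11.3%) held it for 0. The highest value lay in NB-CTRL 2 for 18 members (17.5%), in B-CTRL 3 for 14 (14.6%) and in NB-CTRL 3 for 7 (10.5%). NB-CTRL 2 is the library with the highest sum of hypothalamic and thalamic markers, and their part in these values was not tested. The highest lay in B-CTRL 1 for 4 members (17.3%), in B-CTRL 2 for 4 (29.3%) and in NB-CTRL 1 for 3 (10.7%). Without B-CTRL 2 the median log2 difference was -0.14 with 37 members below 0 (all features: median 0.002, 49.5% below 0). In that refit 3 members, Adcy6, Akap2 and Prkar2a, were lower at an unadjusted limma p under 0.05, where 4.81% of all features were. After the trend of values with locus length was removed from each library, the median was -0.12 with 35 members below 0 (all features: median 0.041, 45.0% below 0), and Adcy6, Pde4a and Prkar2a were lower at an unadjusted p under 0.05, where 4.95% of all features were. Among features with their own locus, the 24 members in the longest class had a median log2 difference of -0.37, against -0.17 for all features of that class, and the 7 in the class from 19.1 to 46.0 kb had -0.17, against -0.010.

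**Figure D2:**
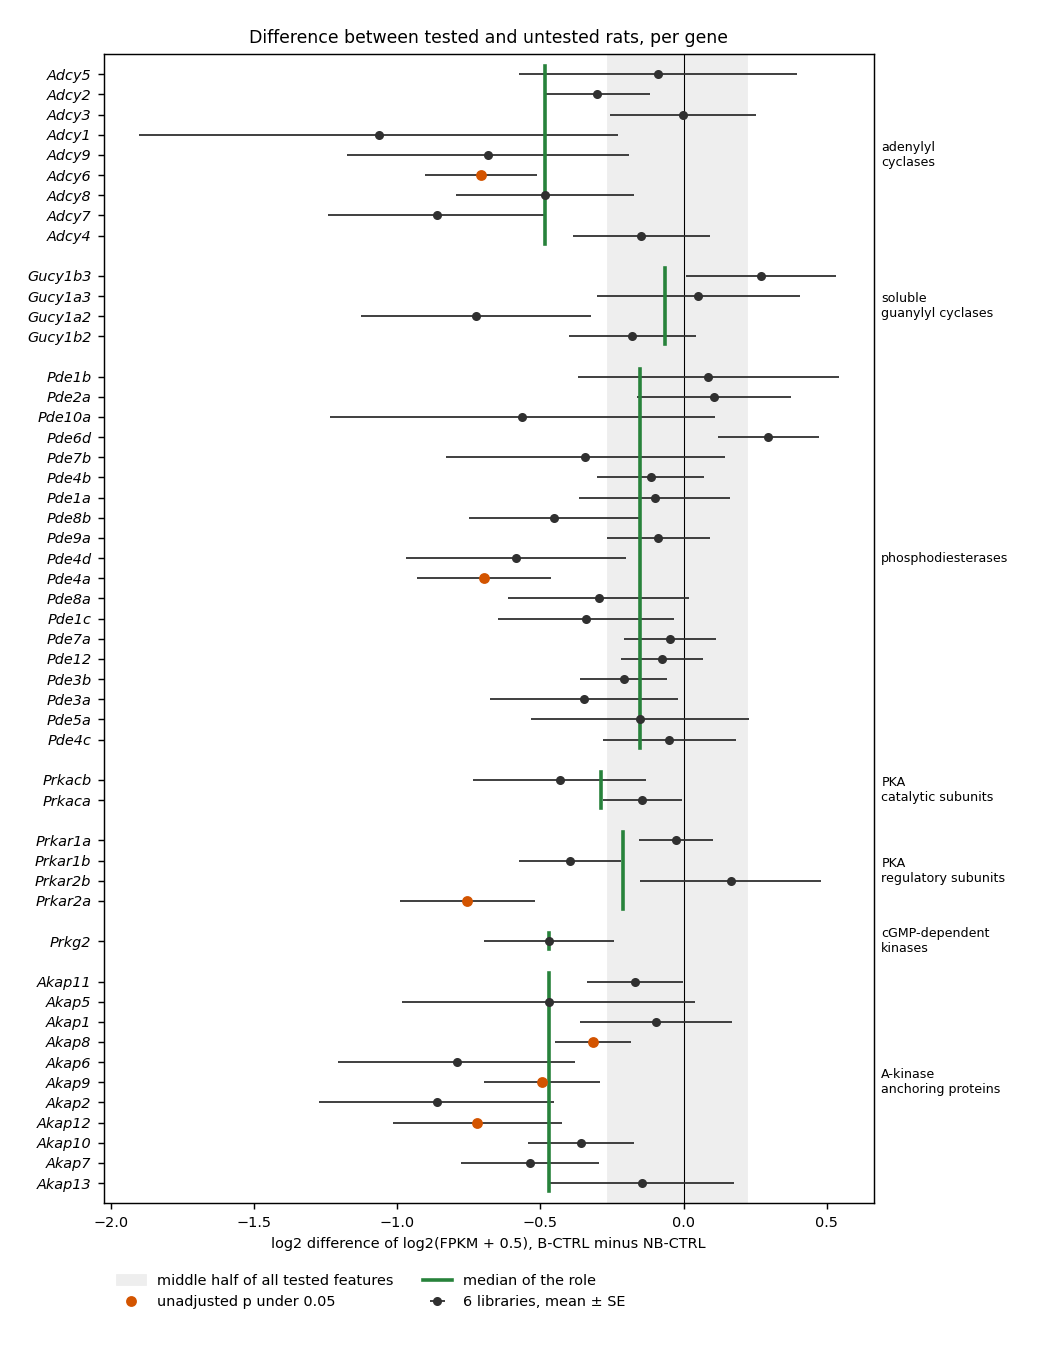
Log2 difference of log2(FPKM + 0.5), B-CTRL minus NB-CTRL, for the 50 tested members by role, with bars of 1 standard error (n = 3 per group), green lines at the median of each role orange points at an unadjusted p under 0.05 and a grey band between the quartiles of all tested features. Most points lie left of 0, with the 6 orange points at an unadjusted p under 0.05 all on the lower side and none past the adjusted threshold.

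Among the enzymes that make cAMP, the 9 tested adenylyl cyclases all had a log2 difference below 0 (median -0.48, range -1.06 to -0.0020), none past the adjusted threshold and 1, Adcy6, at an unadjusted p under 0.05. Over all tested features, 50.3% lay below 0 and 6.07% were lower at that unadjusted limma p. The median of the adenylyl cyclases was -0.74 without B-CTRL 1, -0.13 without B-CTRL 2 and -0.17 after removal of the length trend. The highest by level was Adcy5, a cyclase inhibited by calcium and by inhibitory G proteins and the main form in striatum, at 111, 167 and 401 FPKM in B-CTRL, against 284, 139 and 227 FPKM in NB-CTRL. Its values overlapped widely, since B-CTRL held both the highest and the lowest of the 6 (log2 difference -0.09 ± 0.48 (SE), unadjusted p = 0.857, adjusted p = 0.937). Next in level was Adcy2, a cyclase stimulated by G protein beta-gamma subunits, at 41.0, 40.1 and 31.7 FPKM in B-CTRL, against 37.5, 55.8 and 46.8 FPKM in NB-CTRL. It was lowest in B-CTRL 3, where Adcy5 was highest, and highest in NB-CTRL 2, and the groups overlapped (log2 difference -0.30 ± 0.18 (SE), unadjusted p = 0.147, adjusted p = 0.457). The Adcy2 difference was -0.18 without B-CTRL 3, -0.17 without NB-CTRL 2 and -0.01 after removal of the length trend. Adcy3, known from olfactory neurons and neuronal cilia, was at 21.4, 25.4 and 42.1 FPKM in B-CTRL, against 32.4, 25.2 and 28.2 FPKM in NB-CTRL. B-CTRL 3 was highest and B-CTRL 1 lowest, and the groups overlapped (log2 difference -0.0020 ± 0.26 (SE), unadjusted p = 0.995, adjusted p = 0.998).

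Adcy6, which is closely related to Adcy5 and is likewise inhibited by calcium, was at 7.79, 5.28 and 5.75 FPKM in B-CTRL, against 9.69, 12.4 and 9.42 FPKM in NB-CTRL. Each B-CTRL value lay below each NB-CTRL value (log2 difference -0.71 ± 0.20 (SE), unadjusted p = 0.00870, adjusted p = 0.400). It was the member with the lowest p, and its unadjusted p was under 0.05 with all 6 libraries and in each of the 18 refits; its adjusted p ranged from 0.154 to 0.685. Prkar2a was under that threshold in 17 of 18 refits and Pde4a in 14. The refits reuse the same libraries, so these counts are not independent evidence. Without B-CTRL 1 the Adcy6 log2 difference was -0.86 and without B-CTRL 2 -0.60; after removal of the length trend it was -0.70. Adcy7, a cyclase stimulated by beta-gamma subunits and abundant in blood and immune cells, was at 1.90, 1.05 and 0.936 FPKM in B-CTRL, against 2.36, 4.77 and 1.63 FPKM in NB-CTRL, so that B-CTRL 1 lay above NB-CTRL 3 and the groups overlapped (log2 difference -0.86 ± 0.38 (SE), unadjusted p = 0.0569, adjusted p = 0.400). Of the microglial markers 7 of 8 had a log2 difference above 0, and their part in the Adcy7 values was not tested. Without NB-CTRL 2, which held the highest value and the highest sum of hypothalamic and thalamic markers, the Adcy7 difference was -0.50.

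The calcium-stimulated cyclase Adcy1, described because its spread was the widest of the 50 members, was at 13.7, 2.24 and 35.1 FPKM in B-CTRL, against 24.1, 18.2 and 27.0 FPKM in NB-CTRL. B-CTRL 2 lay below all others and B-CTRL 3 above all others (log2 difference -1.06 ± 0.84 (SE), unadjusted p = 0.244, adjusted p = 0.535). The remaining tested cyclases were Adcy8, Adcy9 and Adcy4, with log2 differences of -0.48, -0.68 and -0.15 and overlapping groups. The share of Adcy5 in summed adenylyl cyclase FPKM was 51.9, 67.0 and 74.2% in B-CTRL, against 68.7, 50.5 and 62.1% in NB-CTRL. In each library it was thus the most abundant cyclase per length, with its smallest shares in the 2 libraries lowest in striatal markers.

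Soluble guanylyl cyclase works as a dimer of an alpha and a beta subunit. The beta subunit gene Gucy1b3 was at 106, 170.4 and 187 FPKM in B-CTRL, against 141, 95.2 and 144 FPKM in NB-CTRL. Its alpha partner Gucy1a3 was at 38.2, 63.5 and 87.3 FPKM in B-CTRL, against 69.9, 38.4 and 70.8 FPKM in NB-CTRL. Both were lowest in B-CTRL 1 and NB-CTRL 2 and highest in B-CTRL 3, so each group held high and low libraries (0.27 ± 0.26 and 0.05 ± 0.35 log2 ± SE, adjusted p = 0.614 and 0.951). The sign of Gucy1a3 turned in 5 of 18 refits, and the Gucy1b3 difference was 0.52 without B-CTRL 1, 0.18 without B-CTRL 2, 0.11 without B-CTRL 3 and 0.08 without NB-CTRL 2. The ratio of Gucy1b3 to Gucy1a3 FPKM was 2.77, 2.68 and 2.14 in B-CTRL, against 2.01, 2.48 and 2.03 in NB-CTRL, with less spread than either subunit. The other alpha subunit gene, Gucy1a2, was at 3.55, 1.35 and 5.35 FPKM in B-CTRL, against 5.44, 4.75 and 5.84 FPKM in NB-CTRL. It was lowest in B-CTRL 2, and B-CTRL 3 lay within the NB-CTRL range (log2 difference -0.72 ± 0.40 (SE), unadjusted p = 0.115, adjusted p = 0.426). The difference was -0.26 without B-CTRL 2, -1.09 without B-CTRL 3 and -0.36 after removal of the length trend. Gucy1b2 stayed between 0.379 and 0.699 FPKM, with overlap. None of the 4 passed the adjusted threshold, and their median log2 difference was -0.06, with 0.09 after removal of the length trend and 0.03 with median scaling.

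Phosphodiesterase genes were the most numerous. Of the 19 tested, 16 had a log2 difference below 0 (background 50.3% of features), with a median of -0.15 (range -0.70 to 0.30). None passed the adjusted threshold. After removal of the length trend the median was -0.01. Those at the highest levels hydrolyse both nucleotides. Pde1b, a calcium- and calmodulin-activated enzyme abundant in striatum, was at 189, 323 and 582 FPKM in B-CTRL, against 420.2, 192 and 367 FPKM in NB-CTRL. Pde2a, which cGMP stimulates and which breaks down both nucleotides, was at 165, 223 and 305 FPKM in B-CTRL, against 228, 158 and 251 FPKM in NB-CTRL. For both genes B-CTRL 3 was highest, B-CTRL 1 and NB-CTRL 2 were the lowest 2, and the groups overlapped (0.09 ± 0.46 and 0.11 ± 0.27 log2 ± SE, adjusted p = 0.936 and 0.860). Each of their signs turned in 5 of 18 refits. The share of Pde1b in summed phosphodiesterase FPKM, leaving out Pde6d and Pde12, was 32.5, 43.4 and 42.9% in B-CTRL, against 40.4, 30.9 and 36.7% in NB-CTRL.

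The phosphodiesterase with the lowest p was Pde4a, a cAMP-specific enzyme of the family that rolipram inhibits, at 7.88, 6.58 and 12.4 FPKM in B-CTRL, against 13.1, 15.4 and 14.6 FPKM in NB-CTRL. Each B-CTRL value was below each NB-CTRL value, though B-CTRL 3 came within 1 FPKM of NB-CTRL 1 (log2 difference -0.70 ± 0.23 (SE), unadjusted p = 0.0206, adjusted p = 0.400). Its log2 difference was -0.63 without B-CTRL 1, -0.51 without B-CTRL 2 and -0.60 after removal of the length trend. Pde4d, of the same family, was at 11.4, 4.49 and 13.5 FPKM in B-CTRL, against 11.7, 13.2 and 16.3 FPKM in NB-CTRL. B-CTRL 2 was far below the rest, B-CTRL 1 was just below NB-CTRL 1, and B-CTRL 3 lay within the NB-CTRL range (log2 difference -0.59 ± 0.38 (SE), unadjusted p = 0.171, adjusted p = 0.474). The difference was -0.13 without B-CTRL 2 and -0.18 after removal of the length trend. Pde4b stayed between 31.4 and 48.2 FPKM and Pde4c between 0.525 and 0.835 FPKM, each with overlap. The 8 tested cAMP-specific genes had a median log2 difference of -0.32, the 7 that take both nucleotides -0.21 and the 2 cGMP-specific genes -0.12.

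Pde6d, a member by name that encodes a prenyl-binding protein and no catalytic subunit, was at 62.5, 97.6 and 78.4 FPKM in B-CTRL, against 67.0, 62.0 and 62.0 FPKM in NB-CTRL. It had the highest log2 difference of all 50 members, with B-CTRL 2 and B-CTRL 3 above all NB-CTRL values and B-CTRL 1 among them (log2 difference 0.30 ± 0.18 (SE), unadjusted p = 0.137, adjusted p = 0.445). Without B-CTRL 1 the difference was 0.46, with an unadjusted p under 0.05 and an adjusted p of 0.355, and without B-CTRL 2 it was 0.14. Pde12, whose product acts on RNA in mitochondria rather than on cyclic nucleotides, varied least, from 4.40 to 5.15 FPKM. The cGMP-specific Pde9a lay between 13.6 and 20.6 FPKM and Pde5a between 0.115 and 1.05 FPKM, and both had their lowest and highest values within B-CTRL.

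Pde10a and Adcy5 break down and form cAMP in the same striatal projection neurons, and both were highest in the same 3 libraries. Pde10a, which hydrolyses both nucleotides, was at 50.3, 37.7 and 213 FPKM in B-CTRL, against 155, 60.8 and 139.6 FPKM in NB-CTRL. The groups overlapped, with the highest and the lowest library of Pde10a both in B-CTRL. Means were 100.2 ± 97.6 FPKM in B-CTRL and 118 ± 50.5 FPKM in NB-CTRL (SD, n = 3 each) and the difference was not past any threshold (log2 difference -0.56 ± 0.67 (SE), unadjusted p = 0.430, adjusted p = 0.687). Its log2 difference was -0.29 without B-CTRL 1, -0.08 without B-CTRL 2 and -1.32 without B-CTRL 3, the last with an unadjusted p under 0.05 and an adjusted p of 0.144. With the striatal marker score as a covariate it was -0.86 (adjusted p = 0.420), and that of Adcy5 -0.36 (adjusted p = 0.427). The adjusted p of Pde10a ranged from 0.144 to 0.979 over all refits, and that of Adcy5 from 0.310 to 0.998. The ratio of Pde10a to Adcy5 FPKM was 0.454, 0.225 and 0.531 in B-CTRL, against 0.545, 0.437 and 0.614 in NB-CTRL. It lay between 0.437 and 0.614 in all libraries but B-CTRL 2, where striatal markers were high and Pde10a was at its lowest. In the coordinates deposited with the values (rn6), Pde10a lies at chromosome 1, 52360295 to 52544450 (ENSRNOG00000011310), and Adcy5 at chromosome 11, 68695838 to 68842320 (ENSRNOG00000002229).

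The promoters of these 2 genes are shown because the genes had their highest values in the same libraries and because the cAMP response element, whose half-site is TGACG, is the sequence through which the pathway acts on transcription. RefSeq, in build GRCr8, gives 1 start for Adcy5 and 2 starts for Pde10a, and the 250 bases before each start are written below, 5′ to 3′ along the gene, with the half-site on either strand (TGACG or CGTCA) in capitals.
Adcy5, chr11:79123344-79123593, minus strand: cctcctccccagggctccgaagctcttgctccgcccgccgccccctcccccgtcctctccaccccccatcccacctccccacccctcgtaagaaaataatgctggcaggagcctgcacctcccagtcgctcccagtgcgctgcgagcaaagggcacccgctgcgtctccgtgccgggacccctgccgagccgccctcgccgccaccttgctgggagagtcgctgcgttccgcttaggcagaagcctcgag
Pde10a start A, chr1:54765669-54765918, minus strand: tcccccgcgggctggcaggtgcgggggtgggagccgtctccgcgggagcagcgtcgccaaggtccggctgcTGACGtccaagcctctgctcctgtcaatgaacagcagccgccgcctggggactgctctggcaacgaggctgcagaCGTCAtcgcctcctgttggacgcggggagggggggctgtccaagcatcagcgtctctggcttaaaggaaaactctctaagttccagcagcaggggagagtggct
Pde10a start B, chr1:54501207-54501456, minus strand: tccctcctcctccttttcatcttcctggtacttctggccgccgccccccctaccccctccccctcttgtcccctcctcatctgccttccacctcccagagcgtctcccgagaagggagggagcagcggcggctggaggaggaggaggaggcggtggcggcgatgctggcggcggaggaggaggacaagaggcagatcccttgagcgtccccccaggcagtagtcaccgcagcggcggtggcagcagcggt
The window of start A of Pde10a held 2 half-sites, beginning 179 and 104 bases before the start, on opposite strands, and those of start B and of Adcy5 held none. Of the 57 members 44 matched the promoter table, 3 of them by a synonym, with 56 windows. The half-site stood in 10 of these 56 (17.9%), against 18.2% of all 33469 windows. A match is a description of the letters and does not show a bound site.

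Other members were highest in the same 3 libraries as Pde10a, though not always in the same order among them. Its 3 highest values were in B-CTRL 3, NB-CTRL 1 and NB-CTRL 3, and the same 3 libraries were highest for 16 of the 50 members, Pde10a included, against 10.3% of all tested features. They were Adcy1, Adcy3, Adcy4, Adcy5, Adcy9, Gucy1a2, Gucy1a3, Pde1b, Pde2a, Pde4b, Pde7b, Pde8b, Pde10a, Akap1, Akap5 and Akap11. The count was made after their values were seen and is a description. Pde7b, a cAMP-specific enzyme and 1 of the 16, had a range of 16.7 to 69.1 FPKM, both ends in B-CTRL. The striatal marker score did not have these 3 libraries highest, since B-CTRL 2 (0.36) lay above NB-CTRL 1 (0.34) and NB-CTRL 3 (0.11) there.

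**Figure D3:**
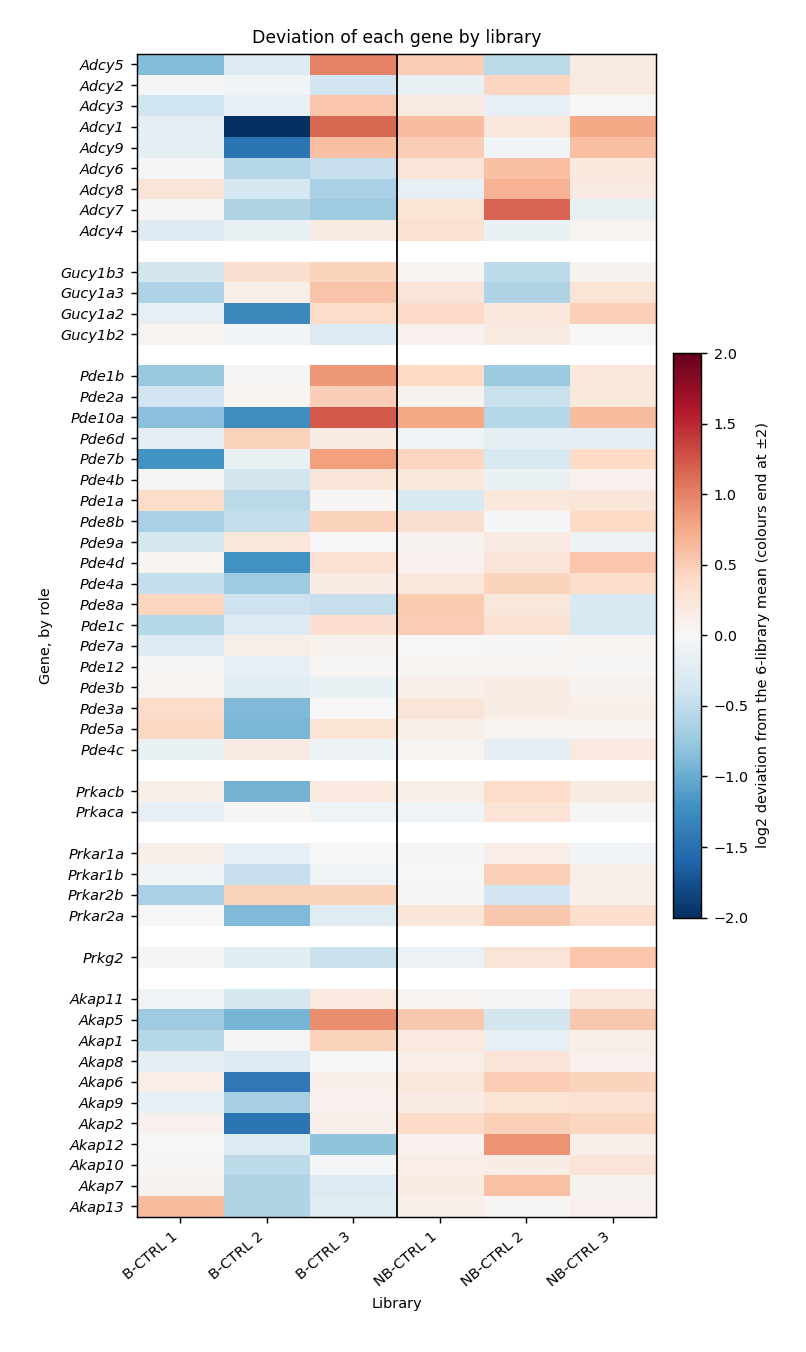
Deviation of log2(FPKM + 0.5) from the 6-library mean of each tested member (rows, by role) in each library (columns, B-CTRL left of the line), with red above and blue below the mean. The B-CTRL 2 column is blue for 40 of 50 genes, where 49.4% of all tested features lay below their mean in that library. Adcy5, Pde1b, Pde7b, Pde10a and Akap5 are red in B-CTRL 3 and blue in B-CTRL 1 and NB-CTRL 2.

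For protein kinase A, the catalytic subunit gene Prkacb was at 183, 88.5 and 196 FPKM in B-CTRL, against 183, 221 and 194 FPKM in NB-CTRL. The other catalytic gene, Prkaca, was at 80.3, 91.5 and 85.0 FPKM in B-CTRL, against 84.9, 109 and 91.1 FPKM in NB-CTRL. B-CTRL 2 alone was low in Prkacb and was second highest in Prkaca, and neither gene passed the adjusted threshold (-0.43 ± 0.30 and -0.14 ± 0.14 log2 ± SE, adjusted p = 0.496 and 0.609). The ratio of Prkacb to Prkaca was 0.967 in B-CTRL 2 and between 2.02 and 2.30 in the other 5 libraries. Without B-CTRL 2 the log2 difference of Prkacb was -0.07, and after removal of the length trend -0.23. That of Prkaca was -0.04 without NB-CTRL 2 and -0.22 without NB-CTRL 1.

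Regulatory subunits of type II, which anchoring proteins bind most tightly, had differences of opposite sign. Prkar2a was at 17.2, 9.20 and 14.6 FPKM in B-CTRL, against 20.5, 25.5 and 22.3 FPKM in NB-CTRL. Every B-CTRL value lay below every NB-CTRL value, with no overlap (log2 difference -0.76 ± 0.24 (SE), unadjusted p = 0.0152, adjusted p = 0.400). The difference was -0.94 without B-CTRL 1, -0.51 without B-CTRL 2 and -0.61 after removal of the length trend, and its adjusted p ranged from 0.150 to 0.685. Without NB-CTRL 2 it was -0.67, no longer at an unadjusted p under 0.05. Prkar2b, the form that predominates in brain, was at 48.2, 104 and 103 FPKM in B-CTRL, against 77.3, 57.9 and 81.6 FPKM in NB-CTRL. B-CTRL 2 and B-CTRL 3 were above all NB-CTRL values and B-CTRL 1 was below them (log2 difference 0.16 ± 0.32 (SE), unadjusted p = 0.620, adjusted p = 0.813), so that without B-CTRL 1 the difference was 0.53 (adjusted p = 0.355). The ratio of Prkar2b to Prkar2a was 2.80, 11.3 and 7.05 in B-CTRL, against 3.77, 2.27 and 3.66 in NB-CTRL; B-CTRL 1 lay within the NB-CTRL range, and the other 2 B-CTRL libraries above it.

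Of type I, Prkar1a, the regulatory subunit present in nearly all cells, was at 284, 235 and 266 FPKM in B-CTRL, against 258, 288 and 253 FPKM in NB-CTRL. It was the most abundant regulatory subunit in each library, and its highest value was 1.22 times its lowest on the FPKM + 0.5 scale (log2 difference -0.03 ± 0.13 (SE), unadjusted p = 0.841, adjusted p = 0.931). The neuronal form Prkar1b was at 146, 110.4 and 144 FPKM in B-CTRL, against 153, 211 and 165 FPKM in NB-CTRL. Its groups did not overlap, and NB-CTRL 2 was the highest (log2 difference -0.40 ± 0.18 (SE), unadjusted p = 0.0618, adjusted p = 0.400); the difference was -0.26 without NB-CTRL 2, -0.27 without B-CTRL 2 and -0.18 after removal of the length trend. The only cGMP-dependent kinase analysed here, Prkg2, the membrane-bound form, was low, at 3.22, 2.79 and 2.33 FPKM in B-CTRL, against 3.03, 4.10 and 5.16 FPKM in NB-CTRL. B-CTRL 1 lay just above NB-CTRL 1, so the groups overlapped (log2 difference -0.47 ± 0.23 (SE), unadjusted p = 0.0773, adjusted p = 0.405). Its difference was -0.31 without NB-CTRL 3 and -0.25 after removal of the length trend.

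All 11 tested anchoring proteins had a log2 difference below 0 (median -0.47, range -0.86 to -0.10), 3 at an unadjusted p under 0.05 and 0 past the adjusted threshold. In 7 of them the groups did not overlap. Without B-CTRL 2 the median was -0.26, and after removal of the length trend -0.24. Akap9, which anchors kinases at the centrosome and Golgi, was at 14.3, 9.94 and 16.9 FPKM in B-CTRL, against 17.9, 19.5 and 19.9 FPKM in NB-CTRL. Its B-CTRL values were all lower, B-CTRL 2 most (log2 difference -0.49 ± 0.20 (SE), unadjusted p = 0.0455, adjusted p = 0.400). Akap12, a scaffold at the plasma membrane, was at 8.56, 7.01 and 4.73 FPKM in B-CTRL, against 9.12, 16.4 and 9.25 FPKM in NB-CTRL. NB-CTRL 2 was highest and B-CTRL 3 lowest, without overlap (log2 difference -0.72 ± 0.30 (SE), unadjusted p = 0.0457, adjusted p = 0.400); without NB-CTRL 2 the difference was -0.45. Akap8, a nuclear anchoring protein, was at 19.2, 18.1 and 22.1 FPKM in B-CTRL, against 24.2, 26.5 and 23.6 FPKM in NB-CTRL, also without overlap (log2 difference -0.32 ± 0.13 (SE), unadjusted p = 0.0477, adjusted p = 0.400). Its locus is shared with the neighbouring Akap8l, so the split of reads between them is uncertain. The Akap9 difference was -0.29 without B-CTRL 2 and -0.24 after removal of the length trend. In the order Akap9, Akap12 and Akap8, log2 differences without B-CTRL 1 were -0.54, -0.90 and -0.30. An unadjusted p under 0.05 was found in 8, 8 and 7 of 18 refits in the same order.

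The most abundant anchoring proteins overlapped between groups. Akap11, known to bind protein kinase A and glycogen synthase kinase, was at 53.6, 44.2 and 65.0 FPKM in B-CTRL, against 59.3, 55.7 and 66.3 FPKM in NB-CTRL. Akap5, the postsynaptic anchoring protein that holds protein kinase A and calcineurin near glutamate receptors, was at 26.1, 22.2 and 82.5 FPKM in B-CTRL, against 62.4, 33.0 and 62.9 FPKM in NB-CTRL. Akap1, which anchors the kinase at the outer mitochondrial membrane, was at 22.8, 33.2 and 47.5 FPKM in B-CTRL, against 39.4, 30.4 and 37.1 FPKM in NB-CTRL. Akap5 and Akap1 were highest in B-CTRL 3, and B-CTRL also held the lowest value of each of the 3 genes (log2 differences -0.17 ± 0.17, -0.47 ± 0.51 and -0.10 ± 0.27, SE, adjusted p = 0.623, 0.657 and 0.869). Without B-CTRL 2 the difference was -0.03 for Akap11 and -0.12 for Akap5, and without B-CTRL 3 -0.31 for Akap11 and -1.06 for Akap5; the sign of Akap1 turned without B-CTRL 1 (0.16). Among the others, Akap6, a perinuclear anchoring protein with a locus of 437 kb, and Akap2, whose locus of 333 kb is shared with Palm2, were described for their size of difference after their values were seen. Akap6 had 6.94 FPKM in B-CTRL 2 and 21.2 to 28.0 FPKM in the other libraries. Akap2 had 4.47 FPKM in B-CTRL 2 and 14.0 to 18.7 FPKM elsewhere. Without B-CTRL 2, Akap2 still had an unadjusted p under 0.05 and Akap6 did not. Akap7, Akap10 and Akap13 lay between 1.21 and 10.2 FPKM.

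Set side by side per length, breakdown genes outweighed synthesis genes by a nearly fixed ratio. Summed phosphodiesterase FPKM, without Pde6d and Pde12, was 580.0, 744 and 1357 in B-CTRL, against 1039, 621 and 999.7 in NB-CTRL. Summed adenylyl cyclase FPKM was 213, 249.9 and 539.6 in B-CTRL, against 414, 275 and 366 in NB-CTRL. Both sums were highest in B-CTRL 3 and lowest in B-CTRL 1, with wide overlap of the groups. The ratio of the phosphodiesterase sum to that of adenylyl and soluble guanylyl cyclases was 1.60, 1.53 and 1.66 in B-CTRL, against 1.65, 1.50 and 1.70 in NB-CTRL. It averaged 1.60 ± 0.0615 in B-CTRL and 1.62 ± 0.106 in NB-CTRL (SD, n = 3 each). Regulatory subunits of protein kinase A outweighed catalytic ones by a ratio of 1.88, 2.55 and 1.88 in B-CTRL, against 1.90, 1.77 and 1.83 in NB-CTRL. B-CTRL 2 alone stood out there, in the library where Prkacb was low. These sums weigh each gene by its level, so the highest few genes set them, and no test was made on them.

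**Figure D4:**
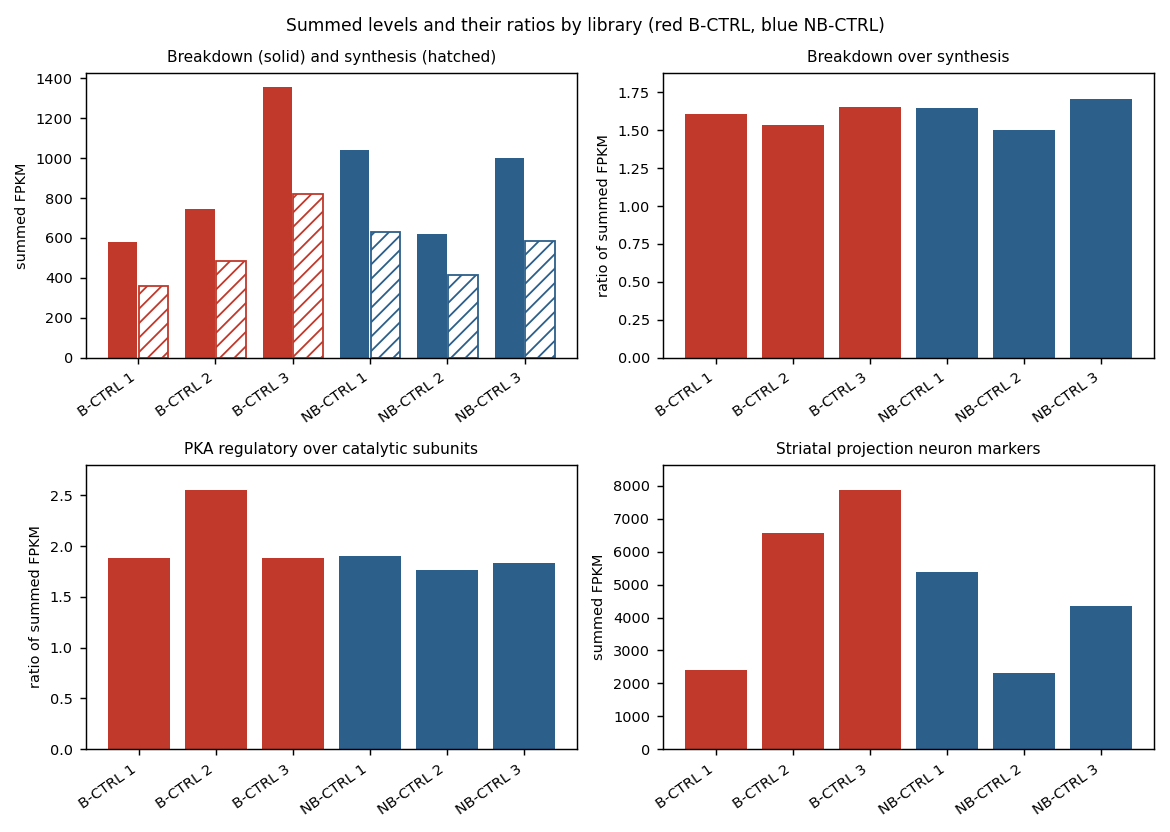
Summed FPKM of phosphodiesterases without Pde6d and Pde12 (solid) and of adenylyl and soluble guanylyl cyclases (hatched), the ratio of these sums, the ratio of regulatory to catalytic protein kinase A subunits, and the summed striatal projection neuron markers, each as 1 bar per library from 0. The breakdown to synthesis ratio stays between 1.50 and 1.70 while the sums range from 580.0 to 1357 FPKM for phosphodiesterases, and the kinase subunit ratio stands out in B-CTRL 2 (2.55).

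Across libraries the members varied more than most features. The median ratio of highest to lowest library, on the FPKM + 0.5 scale, was 2.14 for the 50 members and 1.67 over all tested features, and the median within-group standard deviation was 0.39 log2 against 0.24 log2. The widest were Adcy1, with a highest to lowest ratio of 13.0, Pde10a (5.58), Adcy9 (4.16) and Pde7b (4.04), and the narrowest was Pde12 (1.15). The range over the 3 libraries was wider in B-CTRL than in NB-CTRL for 43 of the 50 members, against 79.0% of all tested features. The 7 members under 0.5 FPKM on average were the soluble cyclase Adcy10, the photoreceptor phosphodiesterase genes Pde6a, Pde6b and Pde6c, and the anchoring proteins Akap3, Akap4 and Akap14, which are best known from sperm or cilia. Pde6c and Akap4 were listed at 0 in all 6 libraries. Akap14 was at 0.636, 0.148 and 0.0405 FPKM in B-CTRL, against 0, 0.0168 and 0.0171 FPKM in NB-CTRL, highest in B-CTRL 1. The 6 matched ependymal markers summed to 92.4 FPKM in that library, against 37.7 to 77.4 FPKM in the others. Of these, Ccdc153, Cfap126, Dynlrb2, Rsph1 and Tmem212 were highest in B-CTRL 1. Rarres2 was not, at 35.5 FPKM there and 66.7 and 56.7 FPKM in B-CTRL 2 and 3. The part of these markers in the Akap14 value was not tested.

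Other genes of the pathway, outside the name rule, were read from 7 further lists, and 0 of their genes passed the adjusted threshold. As background for the counts in all these lists, 50.3% of all tested features lay below 0. At an unadjusted limma p under 0.05, 6.07% were lower and 6.25% higher in B-CTRL. Of 4 tested cyclic nucleotide gated and HCN channel genes, whose products bind cAMP or cGMP directly, 4 had a log2 difference below 0 and 2 an unadjusted p under 0.05. Hcn4 had the lowest p, at 2.04, 2.21 and 1.86 FPKM in B-CTRL, against 3.39, 5.90 and 3.40 FPKM in NB-CTRL, without overlap (log2 difference -0.86 ± 0.24 (SE), unadjusted p = 0.00906, adjusted p = 0.400). Of 4 tested nitric oxide synthase and membrane guanylyl cyclase genes, 4 were below 0 and 2 had an unadjusted p under 0.05. Npr2, a natriuretic peptide receptor that forms cGMP, was at 7.58, 7.08 and 5.55 FPKM in B-CTRL, against 9.06, 15.4 and 9.35 FPKM in NB-CTRL, also without overlap (log2 difference -0.67 ± 0.24 (SE), unadjusted p = 0.0262, adjusted p = 0.400). NB-CTRL 2, the library with the highest sum of hypothalamic and thalamic markers, held the highest value of both Hcn4 and Npr2. The part of those markers was not tested.

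Among 8 tested genes of the CREB family and its coactivators, 6 were below 0, with 2 lower and 1 higher at an unadjusted p under 0.05. Crtc3, a CREB coactivator that the pathway releases into the nucleus, had the lowest p (-0.72 ± 0.26 log2 ± SE). Of 8 features for G protein alpha subunits that act on adenylyl cyclase 6 were below 0, and Gnaz, an inhibitory subunit, had the lowest p (-0.50 ± 0.21). Of 6 Epac and other cAMP effector genes 3 were below 0, and Rapgef3, which encodes the cAMP-activated exchange factor Epac, had the lowest p (-0.33 ± 0.12). Of the 3 genes for peptide inhibitors of protein kinase A 1 was below 0, and Pkia had the lowest p (-0.29 ± 0.15). The 5 tested phosphatase-inhibitor substrates and related genes were all above 0, with 0 at an unadjusted p under 0.05, and Ensa had the lowest p (0.33 ± 0.14). Ppp1r1b, a striatal phosphatase inhibitor in that list and also a striatal marker, was at 674, 1692 and 2319 FPKM in B-CTRL, against 1376, 551 and 1269 FPKM in NB-CTRL, with overlap. Of these genes Hcn4, Npr2, Crtc3, Gnaz and Rapgef3 had adjusted p = 0.400 in limma, and Pkia and Ensa 0.416 and 0.400.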

How the data were processed

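Poly(A)-selected libraries of amygdala RNA were sequenced. The authors deposited 1 table of FPKM per feature and library. Per the submitters' processing notes, STAR 2.5.4b, Cuffdiff 2.2.1 and build rn6 were used; settings and annotation release: not given in the sources used here. These values carry no depth. Log2(FPKM + 0.5) was compared with limma 3.58.1 (R 4.3.3, intensity trend, two-sided, no block) for features averaging 0.5 FPKM or more, with p adjusted over all of them; the fit was tested on simulated data. Such log2 differences understate changes of low genes. An exact permutation test of 3 against 3 libraries cannot go below p = 0.1. Members and lists were chosen with earlier results of these data known. Named members were Adcy5, Pde10a, any past the adjusted threshold and, per role, the 3 highest in mean FPKM and the 3 lowest in p with at least 1 FPKM in a group; others described were chosen after their values were seen. Striatal scores are mean log2 deviations of the markers. Of 162 list symbols 9 were not matched. Promoter motifs came from RefSeq tables in GRCr8, whose coordinates were not mixed with rn6. Of the 50 tested members 13 share a locus with another feature, mostly small RNAs. Alternatives changed the pseudocount, filter, scaling, moderation, library weights, replicate block, length trend, striatal covariate and libraries.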

Additional observations from a re-analysis of the deposited data

How the results depend on the processing

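No member passed the adjusted threshold in any of 18 refits, and 1 feature of the whole table did, without NB-CTRL 3 (range 0 to 1 over refits that left out a library). Members lower at an unadjusted p under 0.05 numbered 3 with the length trend removed, with median scaling and without the intensity trend, where 4.95%, 4.22% and 6.08% of all features were lower. They numbered 1 to 12 with a library left out, where 1.93% to 13.1% of features were lower. Those higher numbered 0 to 2 (1.74% to 12.9%). With the striatal marker score as a covariate 47 of the 50 members lay below 0, where 50.3% of all features did. Adcy6, Adcy7, Akap12, Pde4a, Pde7b, Pde8b and Prkar2a were then lower at an unadjusted limma p under 0.05 (6.27% of features). The members' median log2 difference was -0.12 with the length trend removed and -0.36 to -0.14 with a library left out. That of adenylyl cyclases was -0.17 with the length trend removed, -0.68 over members with a locus of their own and -0.74 to -0.13 with a library left out. That of regulatory subunits was -0.40 over members with a locus of their own and -0.42 with quantile normalization. The causes of these shifts were not tested. Median scaling moved the median of all features to 0.091 on the log2 scale, a shift of 0.094, and split features at an unadjusted p under 0.05 into 4.22% lower and 8.59% higher, against 6.07% and 6.25% without it.

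Signs turned for 8 named genes with small differences. With the length trend removed and with median scaling, log2 differences were 0.21 and 0.092 for Adcy3 and 0.17 and 0.003 for Adcy5. With library weights, quantile normalization and the striatal covariate they were -0.23, -0.036 and -0.16 for Gucy1a3, -0.26, -0.13 and -0.18 for Pde1b and -0.081, -0.11 and -0.040 for Pde2a. With library weights and the striatal covariate they were -0.12 and -0.005 for Prkar2b and 0.038 and 0.004 for Prkar1a, which was 0.067 with median scaling. Leaving out a library gave -0.28 to 0.20 for Adcy3, -0.61 to 0.32 for Adcy5, -0.36 to 0.16 for Akap1, -0.24 to 0.37 for Gucy1a3, -0.33 to 0.49 for Pde1b, -0.12 to 0.32 for Pde2a, -0.087 to 0.047 for Prkar1a and -0.021 to 0.53 for Prkar2b.

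No pairing by replicate number was visible in the values. Deviations of same-numbered libraries correlated at -0.22, 0.072 and 0.15, and not every library correlated best with its own number. With 3 libraries per group, such correlations cannot show whether the samples were paired by design. With the replicate number as a block, 0 features were called. The 4 members Adcy6, Akap12, Pde4a and Prkar2a were lower at an unadjusted limma p under 0.05, where 5.95% of all features were lower and 4.47% higher.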
